A study of Mus musculus with 128 samples.

Results

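Fructose and glucose drinks were compared in the liver of male C57BL6/J mice 3 h after food and drink were offered. The fructose group had 5 libraries and the glucose group 5, out of 26 groups in the series, of which 24 hold 5 libraries and 2 hold 4, and both were found by the labels of strain, drink and time. All were wild-type mice bought at 8 weeks of age and trained for 1 week to a timed evening meal. On the day they were fasted for 21 h and then given regular chow, which held 10% of its calories as fat and 64.5% as carbohydrate, together with a drink of 20% fructose or 20% glucose. Water had been withheld for the last hours of the fast in both groups. The sources used here give neither the amount each mouse drank or ate nor a statement that each library is a separate mouse, so p-values reflect only how libraries vary within groups, which may be technical in part. Beside them stand fructose and glucose livers of BALB/c mice at 3 h and of C57BL6/J mice at 6 h, and C57BL6/J livers with plain water at 3 h.

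Both sugars reach the hepatocyte through the transporter Slc2a2, but they enter metabolism by different enzymes. Ketohexokinase (Khk) phosphorylates fructose and triokinase acts on one of the fragments of the product, whereas glucose enters at the start of glycolysis. Glucose is a strong stimulus of insulin release and fructose a weak one. Insulin lowers genes of glucose release such as G6pc and Pck1 through the factor FoxO1, sugar phosphates raise the targets of the factor ChREBP (gene Mlxipl), and the factor SREBP2 (gene Srebf2) drives the enzymes of cholesterol synthesis.

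Total counts were 19840501 to 28417588 reads per library, 3.70% to 8.36% of them fell on the mitochondrial genome, and the closest pair among the 10 differed by a chi-square of 22.7 per degree of freedom, far over the 1 that sampling alone gives. Glucose replicate 1 stood apart. The summed level of 18 immediate early genes was 2298 CPM in it (CPM are read counts scaled to one common library total after TMM normalization), against 284 to 387 CPM in fructose livers and 241 to 341 CPM in the other 4 glucose livers. The summed neutrophil markers were 56.0 CPM in it, against 1.95 to 7.19 CPM in fructose livers and 1.78 to 4.74 CPM in the other glucose livers. Its median rank correlation with its own group was 0.968, and those of the other 9 libraries were 0.970 to 0.981. Results are therefore given with all libraries and without this one, as log2 fold changes of fructose minus glucose from edgeR with their standard errors (SE). Hepatocyte markers summed to 71835 to 144418 CPM in fructose livers and 69682 to 143724 CPM in glucose livers, as the tissue label has it. Transcripts of another tissue were taken as present at a summed 50 CPM. Skeletal muscle transcripts summed to 2.19 to 408 CPM in fructose livers and 1.57 to 440.1 CPM in glucose livers, and 0 of their 10 genes were called by edgeR or DESeq2 or had an unadjusted p under 0.05 in either fit. Those of pancreas, stomach and gut summed to 31.3 to 89.0 CPM in fructose livers and 30.0 to 96.7 CPM in glucose livers. For adipocytes the sums were 24.7 to 105 CPM and 25.2 to 64.0 CPM. No tested gene of either list was called by edgeR or DESeq2 in either fit, and 1 adipocyte gene had an unadjusted edgeR p under 0.05 in each. Kupffer cell markers summed to 216 to 314 CPM in fructose livers and 244 to 354 CPM in glucose livers, with 11 of 11 log2 fold changes negative (median -0.20), and 0 called by edgeR or DESeq2 or at an unadjusted p under 0.05. Fewer cells of a type and less RNA per cell cannot be told apart in such bulk samples.

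With all libraries, 213 of 16886 genes tested (1.26%) were called at an edgeR adjusted p under 0.05, of which 85 (0.503%) were higher in fructose livers and the others (0.758%) lower. Without glucose replicate 1 the calls fell to 68 of 16877 genes (0.403%), 24 higher (0.142%) and 44 lower (0.261%). The spread behind these p-values was estimated over all libraries of the series, and a fit of the 10 libraries alone called 14 genes. Both fits with all groups called 61 genes with the same sign, 20 higher and 41 lower in fructose livers, and these carry most of the description that follows. A further 152 genes were called with all libraries only and 7 without glucose replicate 1 only. In 40 of the genes called lower with all libraries, glucose replicate 1 held over 2 times the level of every other library. The groups did not overlap in 459 genes tested (2.72%) with all libraries and in 717 (4.25%) without glucose replicate 1, and they did not overlap in 41 of the 61 genes with all libraries. The 61 were called from these same libraries, so the 41 only describe them and are not set against those shares. When 1 of the 10 libraries was left out in turn, 29 of the 61 were called in all 10 fits and 17 in at most 5 of them. The fit without glucose replicate 1 is 1 of these 10 and served to choose the 61, so it called each of them by construction. DESeq2 called 320 genes with all libraries and 163 without glucose replicate 1, and 57 of the 61 genes were among those 163. Library names of glucose replicate 2 and fructose replicate 5 carry an appended letter a, which no source used here explains; among libraries without it, edgeR called 54 genes, and 5 when glucose replicate 1 was also left out. Leaving out fructose replicate 2 gave 80 calls, and leaving out fructose replicate 1, 4 or 5 or glucose replicate 2 or 3 gave 113, 114, 126, 131 and 135.

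**Figure D1:**
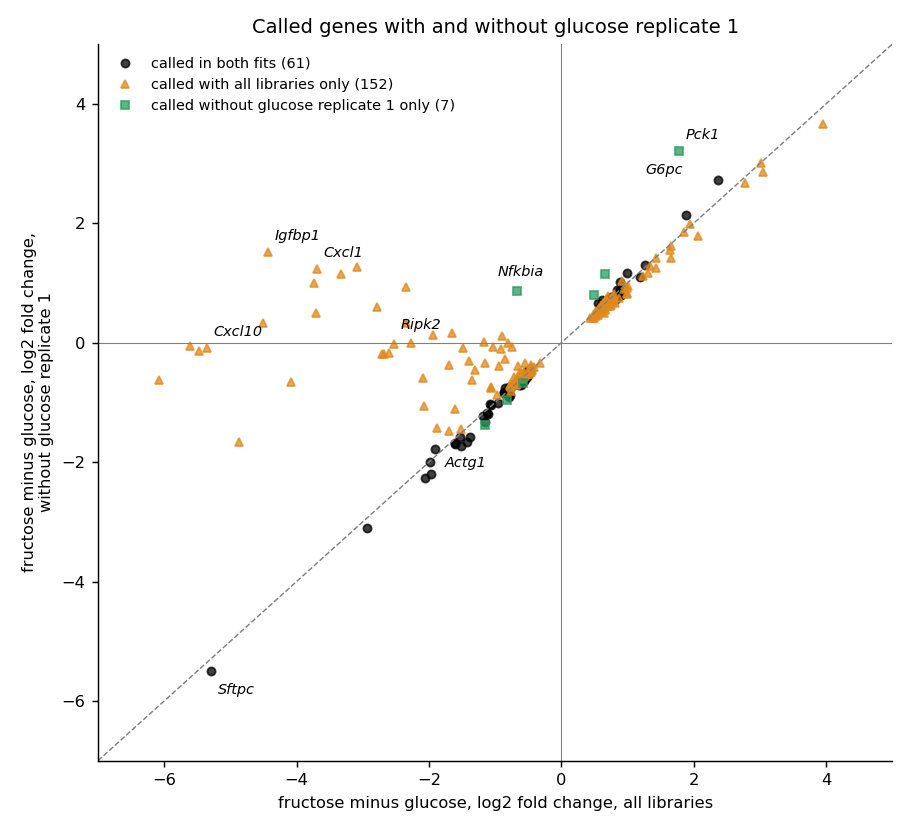
Log2 fold change of fructose minus glucose with all libraries (x axis) and without glucose replicate 1 (y axis) for each gene called in either edgeR fit, with the dashed line marking equal values. The 61 genes called in both lie along the line, whereas Igfbp1, Cxcl1 and Cxcl10 lie between -0.09 and 1.52 on the y axis and at -3.69 to -5.35 on the x axis.

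Among the 61 genes, G6pc rose most in fructose livers. It encodes the catalytic subunit of glucose-6-phosphatase, the enzyme that releases free glucose from the liver (chr11:101367561-101377903, plus strand, GRCm38). Its levels in replicates 1 to 5 were 187, 286, 607, 449 and 502 CPM in fructose livers, against 146, 114, 37.0, 48.3 and 46.0 CPM in glucose livers. Every fructose liver was above every glucose liver, and the lowest fructose library and the highest glucose library were both replicate 1. Fructose minus glucose was 2.37 ± 0.43 (SE; by edgeR, adjusted p = 0.000357) on the log2 scale, with a 95% interval of 1.52 to 3.22, and it was 2.73 ± 0.47 (SE; by edgeR, adjusted p = 0.000451) without glucose replicate 1 and 2.45 (edgeR adjusted p = 0.00765) among libraries without the name suffix. It was called in 20 of 21 alternatives (other scalings, filters, tools and sets of libraries), the exception being a fit of the 10 libraries alone (edgeR adjusted p = 0.083).

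Pck1 encodes the cytosolic phosphoenolpyruvate carboxykinase, which feeds gluconeogenesis (chr2:173153048-173159273, plus strand). It measured 618, 507, 1448, 642 and 396 CPM in fructose livers, against 739, 91.8, 121, 63.9 and 36.2 CPM in glucose livers. Glucose replicate 1 lay among the fructose livers, and the other 4 glucose livers lay below all of them. The difference was 1.78 ± 0.65 (SE; by edgeR, adjusted p = 0.184) on the log2 scale with all libraries and not called, and 3.20 ± 0.72 (SE; by edgeR, adjusted p = 0.018) without glucose replicate 1. Without that library it was 3.43 (edgeR adjusted p = 0.1) among libraries that lack the name suffix.

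The upstream sequences of both genes are shown because response elements for insulin and glucagon signals are known in these promoters. Each run is the 250 bases before the RefSeq start (GRCm38.p6, plus strand, chr11:101367466-101367715 for G6pc and chr2:173152823-173153072 for Pck1). Capitals mark TTACGTNA, a cAMP response element with 1 free base, and TGTTTNG, a FoxO-type insulin response core, searched on both strands. These spellings were chosen with the sequences in view.
G6pc: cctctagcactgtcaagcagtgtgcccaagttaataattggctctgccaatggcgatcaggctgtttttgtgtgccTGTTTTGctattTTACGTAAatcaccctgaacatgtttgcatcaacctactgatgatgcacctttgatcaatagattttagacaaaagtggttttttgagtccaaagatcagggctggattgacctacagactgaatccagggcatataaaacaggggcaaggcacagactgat
Pck1: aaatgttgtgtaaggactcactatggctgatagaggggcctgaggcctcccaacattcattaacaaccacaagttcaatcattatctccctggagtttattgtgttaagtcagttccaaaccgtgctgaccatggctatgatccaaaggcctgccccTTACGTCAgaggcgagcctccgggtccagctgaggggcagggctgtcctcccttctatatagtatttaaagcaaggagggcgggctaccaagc
TTACGTNA occurred in 0.788% of 32851 promoter windows of this length and TGTTTNG in 11.9%. In G6pc the cAMP element began 162 bases before the start and the insulin response core 174 bases before it. In Pck1 the cAMP element began 93 bases before the start, and TGTTTNG had 0 matches in these 250 bases. Sites farther upstream were not searched in either gene.

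Of 20 tested genes of gluconeogenesis and FoxO1 control, 1 was called higher (G6pc) and 1 lower (Igfbp1) with all libraries, and 2 higher (G6pc and Pck1) and 0 lower without glucose replicate 1. Their median log2 fold change was 0.07 with all libraries and 0.20 without glucose replicate 1, beside -0.01 and 0.01 over all genes tested. Igfbp1, a secreted binding protein of insulin-like growth factors that insulin represses, measured 5.09, 4.33, 9.20, 12.2 and 3.74 CPM in fructose livers, against 735, 2.45, 1.87, 4.36 and 1.01 CPM in glucose livers. Only glucose replicate 1 was high, and the log2 fold change was -4.44 ± 1.17 (SE; by edgeR, adjusted p = 0.0326) with all libraries and 1.52 ± 1.06 (SE; by edgeR, adjusted p = 0.704) without it. Fbp1, fructose-1,6-bisphosphatase, measured 395 to 1221 CPM in fructose livers, against 385 to 1223 CPM in glucose livers, and overlapped, with a log2 fold change of -0.02 ± 0.25 (SE, adjusted p = 0.995 by edgeR, or 0.20 without glucose replicate 1). Irs2, an insulin receptor substrate under FoxO1 control, was 0.40 ± 0.57 (SE, adjusted p = 0.896 by edgeR, or 1.36 without glucose replicate 1).

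Each sugar was also set against plain water at 3 h, in contrasts that share the sugar libraries with the comparison above. G6pc was 2.11 (edgeR adjusted p = 0.000663) on the log2 scale with fructose and -0.26 (edgeR adjusted p = 0.991) with glucose. Pck1 was 1.40 (edgeR adjusted p = 0.261) with fructose, and -0.38 with glucose, or -1.79 without glucose replicate 1. Over all genes, fructose minus water called 676 of 16886 (4.00%), and glucose minus water 69 (0.409%), or 4 of 16877 (0.0237%) without glucose replicate 1.

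**Figure D2:**
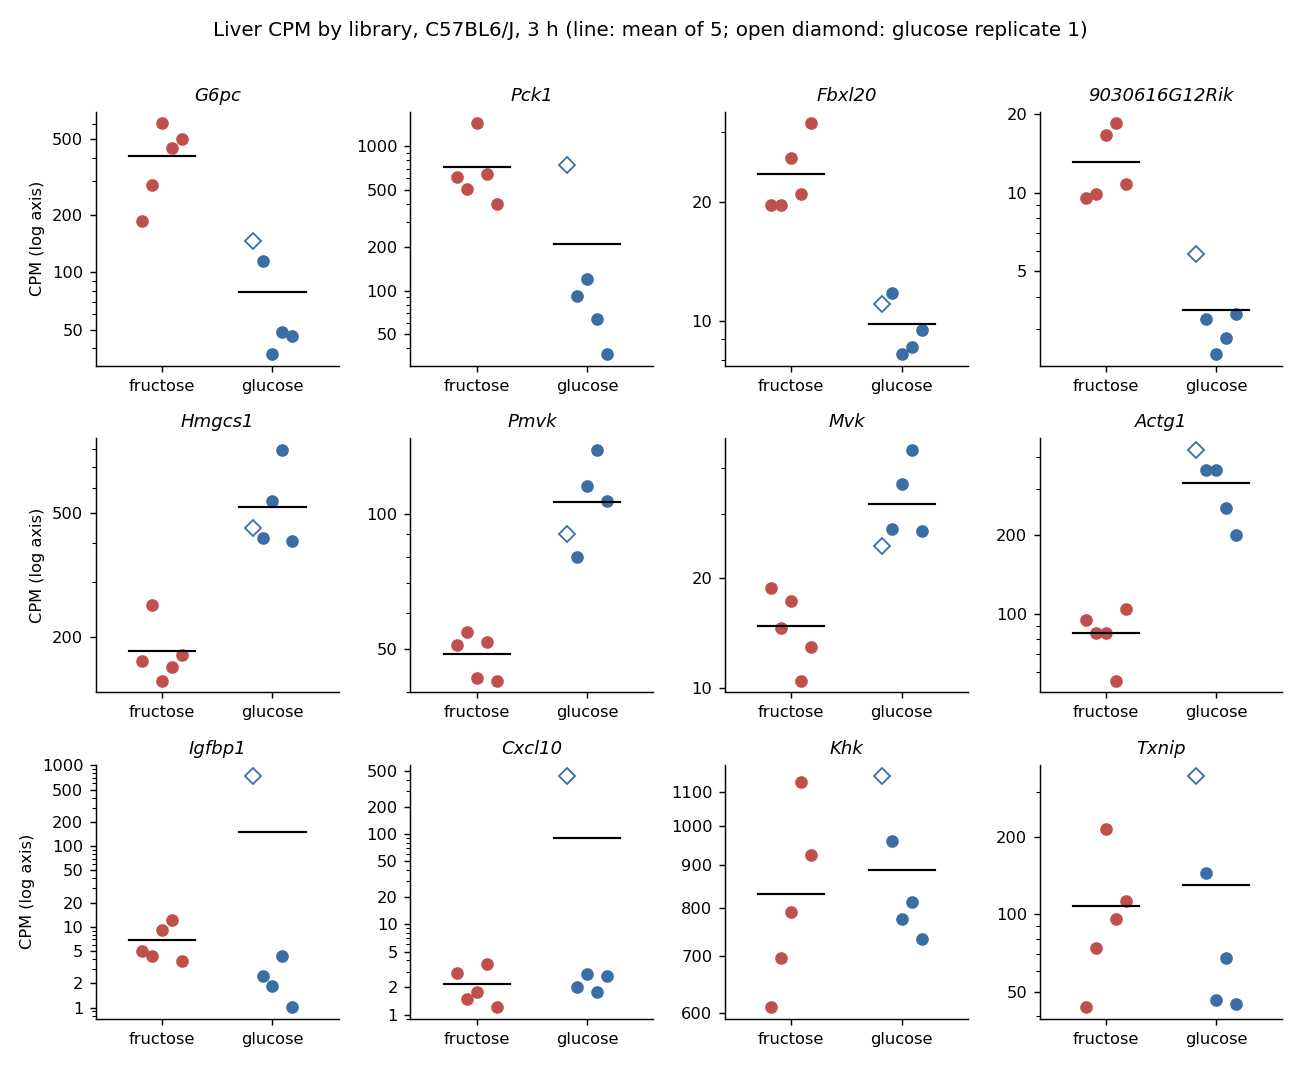
CPM on a log axis in each of the 5 fructose and 5 glucose livers for 12 genes; points are libraries, lines are means of 5 and the open diamond is glucose replicate 1. G6pc, Fbxl20, 9030616G12Rik, Hmgcs1, Pmvk, Mvk and Actg1 do not overlap between the groups, Pck1 overlaps through the open diamond alone, and Khk and Txnip overlap.

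The genes of cholesterol synthesis and uptake lay lower in fructose livers. All 25 tested members had a negative log2 fold change in both fits, and 4 were called lower and 0 higher in each: Hmgcs1, Pmvk, Mvk and Lss. Over all genes tested, 8555 of 16886 were negative with all libraries and 8258 of 16877 without glucose replicate 1. The shares of all genes called lower were 0.758% and 0.261%. The median of the 25 was -0.68 with all libraries and -0.68 without glucose replicate 1, beside -0.01 and 0.01 over all genes. Their summed level was 3258, 3482, 2973, 3330.0 and 3692 CPM in fructose livers, against 5226, 5039, 6331, 6491 and 4757 CPM in glucose livers. The highest fructose liver stood below the lowest glucose liver. Transcripts of the adrenal gland, which also makes sterols, summed to 2.36 to 4.43 CPM in fructose livers, against 1.70, 2.71, 2.27, 12.0 and 6.96 CPM in glucose livers, with 9 of 9 log2 fold changes negative, 0 called by edgeR or at an unadjusted p under 0.05 in either fit, and 1 called by DESeq2 in each. Glucose replicate 4 was the highest in both sums, while glucose replicate 5, second in the adrenal sum, had the lowest sterol sum of its group. The part of adrenal RNA in the sterol values was not tested. The sterol genes are known to move together, so the 25 are not independent measurements.

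Hmgcs1 encodes the cytosolic HMG-CoA synthase, which commits acetyl-CoA units to the pathway (chr13:119690462-119708086, plus strand). It measured 168, 254, 145, 161 and 176 CPM in fructose livers, against 448, 416, 546, 797 and 407 CPM in glucose livers. The groups did not overlap, with fructose replicate 2 nearest to the glucose livers and glucose replicate 4 farthest from the fructose livers. Fructose minus glucose was -1.53 ± 0.36 (SE; by edgeR, adjusted p = 0.0145) on the log2 scale, with a 95% interval of -2.25 to -0.81, and -1.58 ± 0.38 (SE; by edgeR, adjusted p = 0.0286) without glucose replicate 1.

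Mevalonate kinase (Mvk) and phosphomevalonate kinase (Pmvk) act in succession further down. Pmvk measured 51.0, 54.5, 42.9, 51.8 and 42.4 CPM in fructose livers, against 89.9, 80.2, 115, 139 and 106 CPM in glucose livers. Mvk measured 18.8, 14.6, 17.3, 10.4 and 13.0 CPM in fructose livers, against 24.6, 27.2, 36.2, 45.0 and 26.9 CPM in glucose livers. Neither overlapped between groups, and the log2 fold changes were -1.13 ± 0.26 (SE, adjusted p = 0.00955 by edgeR, or -1.19 with adjusted p = 0.0195 without glucose replicate 1) for Pmvk and -1.11 ± 0.27 (SE, adjusted p = 0.0168 by edgeR, or -1.19 with adjusted p = 0.0234 without glucose replicate 1) for Mvk. Lss, lanosterol synthase, which closes the sterol rings, measured 65.1, 85.3, 44.4, 55.0 and 55.5 CPM in fructose livers, against 64.9, 116, 133, 207 and 158 CPM in glucose livers. Its glucose replicate 1 lay among the fructose livers, and the difference was -1.16 ± 0.30 (SE; by edgeR, adjusted p = 0.0278) on the log2 scale, or -1.34 ± 0.30 (SE; by edgeR, adjusted p = 0.0195) without that library.

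Members that missed the threshold, named after their values were seen, had values of the same sign. Msmo1, a demethylating oxidase of sterols, was -1.20 ± 0.37 (SE, adjusted p = 0.0779 by edgeR, or -1.26 without glucose replicate 1), and its groups did not overlap at 73.3 to 129 CPM in fructose livers, against 192 to 354 CPM in glucose livers. Insig1, which holds SREBP in the endoplasmic reticulum, was -0.95 ± 0.31 (SE, adjusted p = 0.119 by edgeR, or -0.99 without glucose replicate 1) and did not overlap either. Fdft1, squalene synthase, was -0.80 ± 0.24 (SE, adjusted p = 0.0729 by edgeR, or -0.89 without glucose replicate 1), and Mvd, mevalonate diphosphate decarboxylase, -1.11 ± 0.39 (SE, adjusted p = 0.159 by edgeR, or -1.26 without glucose replicate 1). Srebf2 itself was -0.40 ± 0.19 (SE, adjusted p = 0.368 by edgeR, or -0.34 without glucose replicate 1). Of the 25, groups did not overlap in 8 with all libraries and in 13 without glucose replicate 1. Over all genes tested the shares without overlap were 2.72% and 4.25%.

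Among libraries without the name suffix the 4 called genes kept their signs and missed the threshold, at -1.60 (edgeR adjusted p = 0.061) for Hmgcs1, -1.18 (edgeR adjusted p = 0.0517) for Pmvk, -1.13 (edgeR adjusted p = 0.0746) for Mvk and -1.18 (edgeR adjusted p = 0.156) for Lss. Leaving out glucose replicate 4 ended the call of Hmgcs1, Mvk and Lss. Leaving out fructose replicate 4 also ended that of Mvk, and leaving out fructose replicate 1, 3, 4 or 5 that of Lss. Of 21 alternatives, 18 called Hmgcs1, 19 Pmvk, 15 Mvk and 11 Lss. Against water at 3 h, Hmgcs1 was -0.16 (edgeR adjusted p = 0.916) with fructose and 1.37 (edgeR adjusted p = 0.0564) with glucose, and Lss -0.22 with fructose and 0.93 with glucose, none of them called.

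The Hmgcs1 promoter is shown for a match to a sterol regulatory element, the kind of site SREBP factors bind. The run is the 250 bases before the RefSeq start (chr13:119690101-119690350, plus strand, GRCm38.p6), and capitals mark CACCCCAC on either strand.
Hmgcs1: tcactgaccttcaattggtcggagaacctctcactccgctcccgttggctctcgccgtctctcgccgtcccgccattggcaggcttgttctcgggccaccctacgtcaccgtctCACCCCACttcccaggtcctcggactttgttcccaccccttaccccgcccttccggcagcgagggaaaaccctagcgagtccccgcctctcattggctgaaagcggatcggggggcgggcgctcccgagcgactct
The match began 136 bases before the start. The same 8 letters occurred in 2.58% of 32851 promoter windows.

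**Figure D3:**
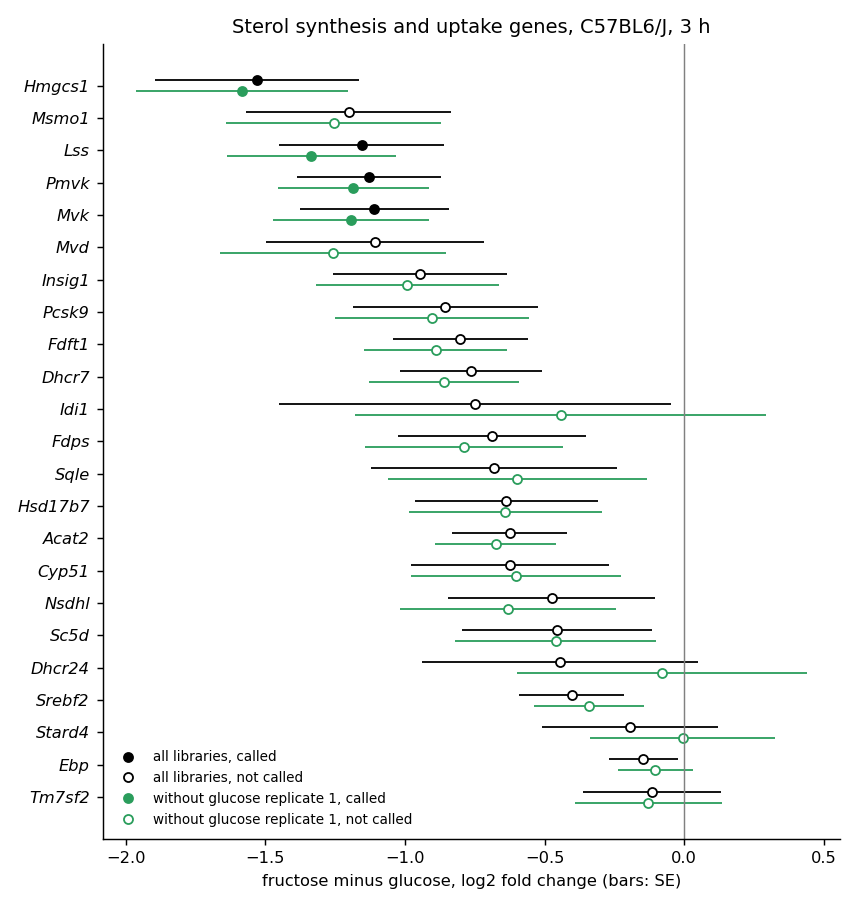
Log2 fold change of fructose minus glucose with its SE for 23 of the 25 tested genes of cholesterol synthesis and uptake, with all libraries (black) and without glucose replicate 1 (green); filled points are called by edgeR. All 23 drawn lie below 0 in both fits, from -1.53 for Hmgcs1 to -0.12 for Tm7sf2 with all libraries.

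None of the 22 tested genes of glycolysis was called by edgeR in either fit; at an unadjusted p under 0.05 there were 2 with all libraries and 4 without glucose replicate 1, and DESeq2 called 1 and 0. Their median log2 fold change was -0.06 with all libraries.

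None of 24 tested genes of fatty acid synthesis was called by edgeR in either fit; at an unadjusted p under 0.05 there were 5 with all libraries and 2 without glucose replicate 1, and DESeq2 called 0 and 0. Their median log2 fold change was -0.27 with all libraries and -0.11 without glucose replicate 1. Fasn, fatty acid synthase, measured 878 to 4271 CPM in fructose livers, against 2052 to 3949.8 CPM in glucose livers, with a log2 fold change of -0.36 ± 0.43 (SE, adjusted p = 0.862 by edgeR, or -0.32 without glucose replicate 1) and a 95% interval of -1.22 to 0.50. Its 2 lowest values were fructose replicates 1 and 3, and its highest was fructose replicate 4. Srebf1, whose product drives this pathway under insulin, was -0.41 ± 0.27 (SE, adjusted p = 0.599 by edgeR, or -0.25 without glucose replicate 1), acetyl-CoA carboxylase (Acaca) 0.12 ± 0.28 (SE, adjusted p = 0.951 by edgeR, or 0.31 without glucose replicate 1), and stearoyl-CoA desaturase (Scd1) -0.28 ± 0.64 (SE, adjusted p = 0.949 by edgeR, or -0.10 without glucose replicate 1), and all 3 overlapped. Against water, Fasn was 1.46 (edgeR adjusted p = 0.0383) with fructose and 1.82 (edgeR adjusted p = 0.0283) with glucose. None of 22 insulin signalling genes was called by edgeR in either fit, with 18 positive and 4 negative values; at an unadjusted p under 0.05 there were 1 with all libraries and 1 without glucose replicate 1, and DESeq2 called 0 and 0.

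The enzymes that take up and split fructose showed no called difference between the drinks. None of 12 tested genes of this list was called by edgeR in either fit; at an unadjusted p under 0.05 there were 0 with all libraries and 1 without glucose replicate 1, and DESeq2 called 0 and 0. Their median log2 fold change was 0.05 with all libraries and 0.13 without glucose replicate 1. Khk measured 609, 697, 791, 1129.7 and 925 CPM in fructose livers, against 1148, 961, 775, 814 and 733 CPM in glucose livers, with a log2 fold change of -0.09 ± 0.23 (SE, adjusted p = 0.954 by edgeR, or 0.02 without glucose replicate 1) and a 95% interval of -0.55 to 0.36. Glucose replicate 1 was its highest library. Triokinase, listed as Dak, which phosphorylates glyceraldehyde, was 0.06 ± 0.31 (SE, adjusted p = 0.983 by edgeR, or 0.41 without glucose replicate 1), the transporter Slc2a2 0.18 ± 0.28 (SE, adjusted p = 0.905 by edgeR, or 0.29 without glucose replicate 1), the intestinal fructose transporter Slc2a5 0.05 ± 0.32 (SE, adjusted p = 0.984 by edgeR, or 0.06 without glucose replicate 1) and glycerate kinase (Glyctk) -0.18 ± 0.16 (SE, adjusted p = 0.777 by edgeR, or -0.18 without glucose replicate 1).

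Of 19 tested ChREBP targets, 1 was called higher (G6pc) and 0 lower in both fits. The list's median was 0.01 with all libraries and 0.25 without glucose replicate 1, and 10 and 15 of the 19 had positive values. Mlxipl itself was 0.37 ± 0.31 (SE, adjusted p = 0.751 by edgeR, or 0.20 without glucose replicate 1), and Pklr, the liver pyruvate kinase, was 0.09 ± 0.52 (SE, adjusted p = 0.984 by edgeR, or 0.27 without glucose replicate 1). Txnip, the thioredoxin-interacting protein, measured 43.4, 74.0, 216, 95.6 and 113 CPM in fructose livers, against 346, 145, 46.6, 67.6 and 44.6 CPM in glucose livers, and it was -0.26 ± 0.38 (SE; by edgeR, adjusted p = 0.898) on the log2 scale with all libraries and 0.52 ± 0.38 (SE; by edgeR, adjusted p = 0.736) without glucose replicate 1. Its groups overlapped, with glucose replicate 1 the highest of the 10. The related arrestin gene Arrdc4 was -0.28 ± 0.22 (SE, adjusted p = 0.729 by edgeR, or 0.25 without glucose replicate 1), and the glucose-6-phosphate translocase Slc37a4, the partner of G6pc in the membrane, -0.13 ± 0.20 (SE, adjusted p = 0.907 by edgeR, or 0.08 without glucose replicate 1).

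Fgf21, a liver hormone, measured 1.35 to 13.8 CPM in fructose livers, against 2.02 to 13.7 CPM in glucose livers, and Rgs16, which turns off G proteins, 3.53 to 143 CPM in fructose livers, against 8.71 to 237 CPM in glucose livers. Both spread widely within each group and overlapped, and their log2 fold changes were 0.14 ± 0.65 (SE, adjusted p = 0.978 by edgeR, or 0.23 without glucose replicate 1) and -0.22 ± 0.76 (SE, adjusted p = 0.971 by edgeR, or 1.02 without glucose replicate 1). Klf10, a transcription factor, was 0.23 ± 0.42 (SE, adjusted p = 0.929 by edgeR, or 0.55 without glucose replicate 1). Cyp7a1, the rate-limiting enzyme of bile acid synthesis, was 0.12 ± 0.44 (SE, adjusted p = 0.973 by edgeR, or -0.06 without glucose replicate 1). Against water, Fgf21 was 4.67 (edgeR adjusted p = 0.00014) with fructose and 4.52 (edgeR adjusted p = 0.000695) with glucose.

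The cytoplasmic actin gene Actg1 was called lower in every fit made (chr11:120345690-120348542, minus strand). It measured 94.5, 84.3, 84.6, 55.4 and 105 CPM in fructose livers, against 425, 355, 356, 254 and 200.3 CPM in glucose livers. The highest fructose liver was below the lowest glucose liver. Fructose minus glucose was -1.91 ± 0.40 (SE; by edgeR, adjusted p = 0.0032) on the log2 scale, with a 95% interval of -2.69 to -1.12, -1.78 ± 0.41 (SE; by edgeR, adjusted p = 0.0195) without glucose replicate 1 and -1.96 (edgeR adjusted p = 0.000661) among libraries without the name suffix. It was called in 21 of 21 alternatives, as were Fbxl20 and 9030616G12Rik and no other gene.

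Actb, the other cytoplasmic actin, named here after its values were seen, measured 651, 592, 661, 754 and 671 CPM in fructose livers, against 1199, 1244, 1088, 1031 and 999 CPM in glucose livers. Its groups did not overlap either, at -0.74 ± 0.19 (SE; by edgeR, adjusted p = 0.0285) with all libraries and -0.71 ± 0.20 (SE; by edgeR, adjusted p = 0.0802) without glucose replicate 1. Both genes were lower than with water in fructose livers, at -2.66 (edgeR adjusted p = 5.35e-06) for Actg1 and -1.03 (edgeR adjusted p = 0.000231) for Actb, and with glucose they were -0.75 (edgeR adjusted p = 0.796) and -0.29 (edgeR adjusted p = 0.915). In BALB/c at 3 h Actg1 was -1.21 (edgeR adjusted p = 0.474), and in C57BL6/J at 6 h it was -0.18 (edgeR adjusted p = 0.972). Both actins have near-identical copies in the genome, so reads may be split among them and the levels are uncertain to that extent.

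The Actg1 promoter is shown for a match to the CArG box, the site of serum response factor in actin genes. The run is the 250 bases before the RefSeq start on the minus strand (chr11:120348496-120348745, GRCm38.p6), with the CArG box and the E-box CACGTG in capitals on either strand.
Actg1: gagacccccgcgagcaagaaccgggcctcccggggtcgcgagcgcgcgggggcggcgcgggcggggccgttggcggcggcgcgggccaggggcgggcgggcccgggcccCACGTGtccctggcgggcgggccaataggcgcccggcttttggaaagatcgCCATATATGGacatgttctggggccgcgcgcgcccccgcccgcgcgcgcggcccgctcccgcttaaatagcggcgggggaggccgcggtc
The CArG box began 90 bases and the E-box 141 bases before the start. A CArG box occurred in 1.47% and CACGTG in 6.02% of 32851 promoter windows.

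Fbxl20, an F-box protein of ubiquitin ligase complexes, rose in fructose livers (chr11:98082556-98150403, minus strand). It measured 19.7, 19.6, 25.8, 21.0 and 31.6 CPM in fructose livers, against 11.1, 11.8, 8.25, 8.61 and 9.49 CPM in glucose livers. The groups lay apart, and the difference was 1.26 ± 0.21 (SE; by edgeR, adjusted p = 6.09e-05) on the log2 scale, 1.31 ± 0.23 (SE; by edgeR, adjusted p = 0.000451) without glucose replicate 1 and 1.19 (edgeR adjusted p = 0.00153) among libraries without the name suffix. The gene listed as 9030616G12Rik, which has no role given in the files and was named after its values were seen (chr10:128971197-128978115), measured 9.55, 9.90, 16.6, 18.4 and 10.8 CPM in fructose livers, against 5.81, 3.30, 2.41, 2.79 and 3.42 CPM in glucose livers. It did not overlap between groups either, at 1.88 ± 0.34 (SE; by edgeR, adjusted p = 0.000408) with all libraries and 2.13 ± 0.38 (SE; by edgeR, adjusted p = 0.000525) without glucose replicate 1.

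Other genes that rose in both fits included Ulk1, the kinase that starts autophagy, which measured 52.5, 117, 101, 178 and 91.4 CPM in fructose livers, against 80.2, 58.5, 30.8, 62.0 and 40.5 CPM in glucose livers. Its groups overlapped through fructose replicate 1, the lowest of its group, and the difference was 0.99 ± 0.26 (SE; by edgeR, adjusted p = 0.0297) on the log2 scale with all libraries and 1.17 ± 0.28 (SE; by edgeR, adjusted p = 0.024) without glucose replicate 1. It was called in 10 of 21 alternatives, and lost without glucose replicate 2, 3 or 5 or fructose replicate 2 or 4. Rabep2, a Rab effector of endosomes, was 1.18 ± 0.26 (SE, adjusted p = 0.00605 by edgeR, or 1.11 with adjusted p = 0.0394 without glucose replicate 1) at 21.0 to 42.6 CPM in fructose livers, against 10.2 to 21.5 CPM in glucose livers. Ubr4, a large ubiquitin ligase named after its values were seen, was 0.88 ± 0.18 (SE, adjusted p = 0.00198 by edgeR, or 0.86 with adjusted p = 0.016 without glucose replicate 1), and Cdk2, a cyclin-dependent kinase named in the same way, 0.89 ± 0.19 (SE, adjusted p = 0.00387 by edgeR, or 0.80 with adjusted p = 0.0394 without glucose replicate 1). Rbm33, C2cd3, Zbtb42 and Pgm2l1 were called higher in both fits too, at 0.84, 0.91, 0.94 and 0.89 with all libraries. Of 21 alternatives 17 called Rbm33, 18 C2cd3 and 16 Zbtb42, which was lost without fructose replicate 1, but 8 called Pgm2l1, and of the 10 fits that leave out 1 library, the call of Pgm2l1 held in 2, without glucose replicate 1 and without fructose replicate 4. Vgll4 and the phosphatase subunit gene Ppp1r15a were called higher only without glucose replicate 1, at 1.15 ± 0.27 (SE; by edgeR, adjusted p = 0.0205) and 0.80 ± 0.20 (SE; by edgeR, adjusted p = 0.0366).

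Of the 41 genes lower in both fits, Acot6, an acyl-CoA thioesterase, measured 0.547, 0.571, 0.613, 0.157 and 0.457 CPM in fructose livers, against 1.82, 2.11, 1.56, 1.96 and 1.98 CPM in glucose livers. All 5 fructose livers were below all 5 glucose livers, and the difference was -1.99 ± 0.39 (SE, adjusted p = 0.00166 by edgeR, or -2.00 with adjusted p = 0.00785 without glucose replicate 1) on the log2 scale. Cdcp1, a transmembrane glycoprotein, averaged 3.19 ± 0.465 CPM in fructose livers and 9.70 ± 3.47 CPM in glucose livers (SD, n = 5 each) without overlap, and was -1.60 ± 0.36 (SE, adjusted p = 0.00783 by edgeR, or -1.68 with adjusted p = 0.016 without glucose replicate 1). Taf1b, a subunit of the RNA polymerase I selectivity factor, measured 1.04 to 2.20 CPM in fructose livers, against 2.45 to 4.55 CPM in glucose livers, and was -1.19 ± 0.20 (SE, adjusted p = 6.09e-05 by edgeR, or -1.22 with adjusted p = 0.000451 without glucose replicate 1). Nfe2 and Jrk, which averaged few CPM, were -2.05 ± 0.53 (SE, adjusted p = 0.0285 by edgeR, or -2.27 with adjusted p = 0.0286 without glucose replicate 1) and -1.60 ± 0.39 (SE, adjusted p = 0.0182 by edgeR, or -1.70 with adjusted p = 0.0286 without glucose replicate 1). Nfe2 was called in 9 of 21 alternatives, and lost without glucose replicate 4 or fructose replicate 1, 3, 4 or 5, and Jrk in 13, lost without glucose replicate 3 or fructose replicate 2, 4 or 5. Named after their values were seen, the retinoid X receptor gene Rxrg was -1.06 ± 0.21 (SE, adjusted p = 0.0022 by edgeR, or -1.04 with adjusted p = 0.0154 without glucose replicate 1), the secreted ligand Wnt5b -1.07 ± 0.21 (SE, adjusted p = 0.00114 by edgeR, or -1.03 with adjusted p = 0.0113 without glucose replicate 1), and the lipocalin Lcn12 -2.93 ± 0.71 (SE, adjusted p = 0.0173 by edgeR, or -3.10 with adjusted p = 0.0254 without glucose replicate 1). Lcn12 averaged only 0.697 CPM over the 10 libraries and was called in 14 of 21 alternatives. Its call was lost without fructose replicate 2, 4 or 5, and in DESeq2 without glucose replicate 1.

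A further 5 genes lower in both fits were also named after their values were seen. Tomm5, a subunit of the mitochondrial import pore, measured 25.5, 22.9, 25.2, 27.2 and 27.7 CPM in fructose livers, against 42.6, 47.3, 40.4, 39.0 and 37.0 CPM in glucose livers. The groups did not overlap, at -0.68 ± 0.13 (SE, adjusted p = 0.00139 by edgeR, or -0.67 with adjusted p = 0.0126 without glucose replicate 1). Mrps2, of the small mitochondrial ribosomal subunit, was -0.57 ± 0.13 (SE, adjusted p = 0.00908 by edgeR, or -0.61 with adjusted p = 0.016 without glucose replicate 1), the cytochrome oxidase assembly factor Coa4 -0.65 ± 0.17 (SE, adjusted p = 0.03 by edgeR, or -0.71 with adjusted p = 0.0366 without glucose replicate 1), the RNA-binding protein Fastkd2 -0.64 ± 0.14 (SE, adjusted p = 0.00531 by edgeR, or -0.60 with adjusted p = 0.0286 without glucose replicate 1), and the mitochondrial transcription elongation factor Tefm -0.58 ± 0.13 (SE, adjusted p = 0.0107 by edgeR, or -0.61 with adjusted p = 0.0205 without glucose replicate 1). The call of Coa4 was lost without glucose replicate 3 or 4 or fructose replicate 1, 2 or 5, and that of Tefm without fructose replicate 4. Rrp1b was the only called gene of 23 in ribosome biogenesis, at -0.78 ± 0.22 (SE, adjusted p = 0.0481 by edgeR, or -0.88 with adjusted p = 0.0439 without glucose replicate 1), while the list's median was -0.21. It was called in 7 of 21 alternatives and in 3 of the 10 that leave out 1 library, without glucose replicate 1, 2 or 3. Of the 23 genes, 22 had negative values with all libraries and 19 without glucose replicate 1, beside 8555 of 16886 genes tested with all libraries. In BALB/c at 3 h 22 were negative, and in C57BL6/J at 6 h 17 were positive and 6 negative.

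Gene length moved with the direction of the calls. The median length in the deposited table was 4520 bases for genes called higher, 2258.5 for genes called lower and 2817 for all genes tested with all libraries. Without glucose replicate 1 it was 3215.5 for genes called higher and 2375.5 for genes called lower. Across 5 equal bins of the tested genes by length, the median log2 fold change ran from -0.08 in the shortest to 0.10 in the longest with all libraries. The part of gene length in these results was not tested.

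The immune and early response genes described next were called lower with all libraries and stood high in glucose replicate 1 alone. Cxcl10, a chemokine induced by interferon, measured 2.86, 1.48, 1.79, 3.62 and 1.20 CPM in fructose livers, against 438, 2.03, 2.85, 1.76 and 2.68 CPM in glucose livers. Ripk2, a kinase of innate immune signalling, measured 4.96, 4.05, 5.11, 5.46 and 6.89 CPM in fructose livers, against 131, 6.13, 4.90, 5.29 and 5.29 CPM in glucose livers. In both, the 4 other glucose livers lay within or close to the range of the fructose livers.

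Their log2 fold changes with all libraries were -5.35 ± 0.83 (SE; by edgeR, adjusted p = 3.69e-05) and -2.52 ± 0.36 (SE; by edgeR, adjusted p = 2.62e-06), and without glucose replicate 1 they were -0.09 ± 0.61 (SE; by edgeR, adjusted p = 0.99) and -0.03 ± 0.19 (SE; by edgeR, adjusted p = 0.991). The same held for the immediate early factor Egr1, at 556 CPM in glucose replicate 1 and 1.83 to 3.08 CPM in the other glucose livers, with 0.673 to 6.82 CPM in fructose livers. The chemokines Cxcl1, Cxcl2 and Ccl2 measured 593, 67.4 and 33.9 CPM in glucose replicate 1, the inflammatory inhibitor Tnfaip3 226 CPM, the adhesion molecule Icam1 218 CPM and the GTPase Rnd1 207 CPM. Over the other 9 libraries Cxcl1 reached at most 35.5 CPM, in fructose replicate 4, and the other 5 at most 12.8 CPM. None of these 9 genes was called by edgeR without glucose replicate 1, and DESeq2 called none and gave no adjusted p for Cxcl2 and Ccl2. Tnfaip3 and Rnd1 then had positive values with an unadjusted edgeR p of 0.0355 and 0.0442.

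By list, 4 of 35 acute phase and inflammation genes were called lower and 0 higher with all libraries (median -0.50), and 0 lower and 1 higher without glucose replicate 1 (median -0.05). Of 18 immediate early genes, 6 were called lower with all libraries (median -1.10) and none by edgeR or DESeq2 without that library (median 0.12), where 1 had an unadjusted p under 0.05. They include Fos, Junb and Dusp6, at 115, 352 and 158 CPM in glucose replicate 1 and at most 8.35, 26.0 and 42.6 CPM in the other 9. Of 9 neutrophil markers, 3 were called lower with all libraries, S100a8, S100a9 and Retnlg, and none by edgeR or DESeq2, or at an unadjusted p under 0.05, without it. Of 20 interferon response genes, 2 were called lower with all libraries, Cxcl10 and Irf1 (median -0.35, 18 negative). Without glucose replicate 1 the interferon median stayed at -0.31 with 16 negative, beside 0.01 over all genes. There edgeR called 0 of the 20 and DESeq2 1, and 4 had an unadjusted edgeR p under 0.05. Irf1 and Atf3, stress and interferon factors, were -1.40 ± 0.28 (SE; by edgeR, adjusted p = 0.0022) and -2.07 ± 0.49 (SE; by edgeR, adjusted p = 0.0145) with all libraries, and -0.31 ± 0.23 (SE; by edgeR, adjusted p = 0.742) and -1.06 ± 0.47 (SE; by edgeR, adjusted p = 0.401) without it.

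The member called higher without glucose replicate 1 was Nfkbia, the inhibitor of NF-kappaB, which measured 29.4, 41.6, 45.7, 79.8 and 33.9 CPM in fructose livers, against 263, 24.6, 28.6, 21.4 and 27.1 CPM in glucose livers. All 5 fructose livers were above the other 4 glucose livers. The difference was -0.66 ± 0.29 (SE; by edgeR, adjusted p = 0.326) on the log2 scale with all libraries and 0.86 ± 0.22 (SE; by edgeR, adjusted p = 0.0401) without glucose replicate 1, a change of sign. Fructose replicate 4 was the highest of its group in Nfkbia, and it was also the highest of its group in Tnfaip3, Cxcl1, Fos and S100a8.

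Calls resting on other single libraries also occurred. Sftpc, a surfactant protein of the lung, measured 0.0421, 0.476, 0, 0 and 0.0415 CPM in fructose livers, against 2.04, 0.0846, 0.0446, 20.8 and 0 CPM in glucose livers. Glucose replicate 4 held nearly all of it, and the call was lost without that library (log2 fold change -2.19, edgeR adjusted p = 0.554). It was also lost without fructose replicate 1, 3, 4 or 5. Igj, the joining chain of secreted antibodies, was 1.86 ± 0.50 (SE, adjusted p = 0.0378 by edgeR, or 1.85 with adjusted p = 0.0952 without glucose replicate 1). It had 15.5 and 8.14 CPM in fructose replicates 2 and 4 and at most 2.61 CPM elsewhere. Called higher with all libraries only were also Fam227a, Tbx6, Rec8, Wdr62, Ctsk, Spaca6 and Cabyr, at 1.66, 1.66, 1.64, 1.43, 1.34, 1.30 and 1.23 on the log2 scale, with edgeR adjusted p of 0.0641 to 0.151 without glucose replicate 1. The chaperonin Hspe1, which has near-identical copies, and sulfiredoxin (Srxn1) were called lower with all libraries only, at -0.64 ± 0.18 (SE, adjusted p = 0.0492 by edgeR, or -0.53 with adjusted p = 0.211 without glucose replicate 1) and -0.72 ± 0.20 (SE, adjusted p = 0.0447 by edgeR, or -0.57 with adjusted p = 0.223 without glucose replicate 1).

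**Figure D4:**
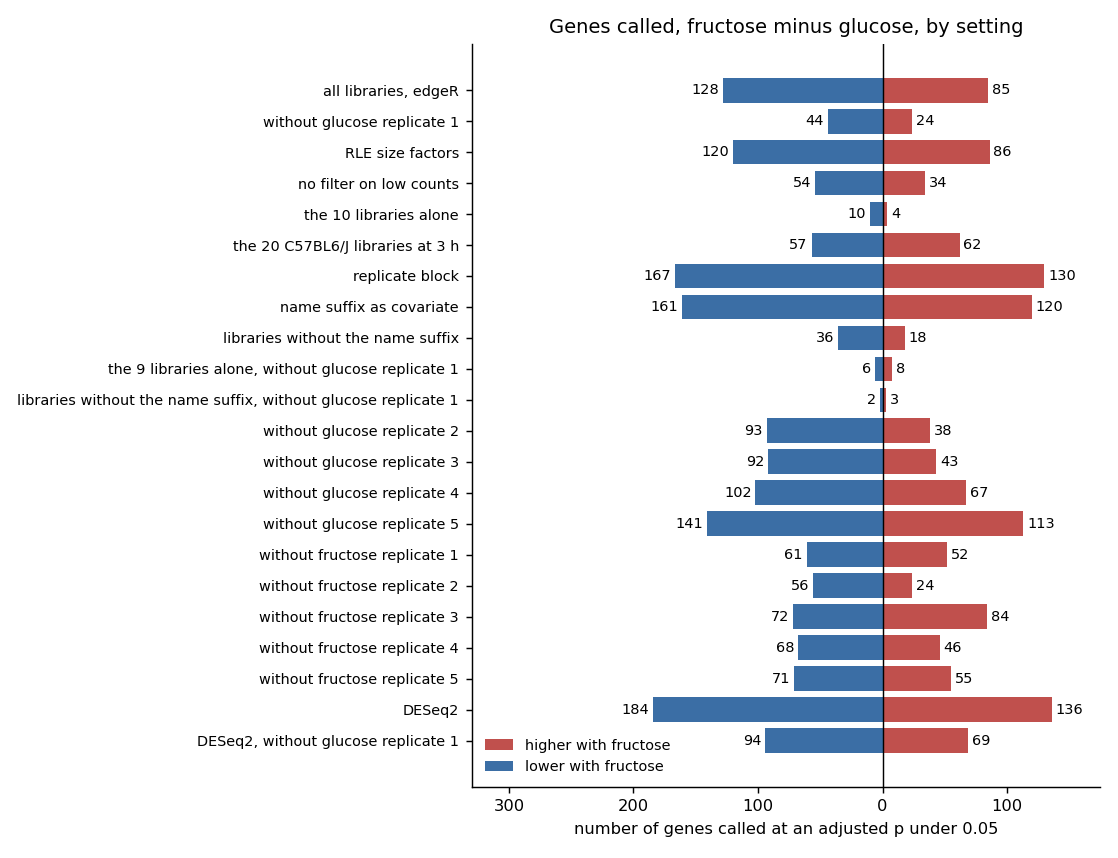
Number of genes called by each fit, higher in fructose livers to the right of 0 and lower to the left, with all libraries at the top and 21 alternatives below. The total runs from 5 to 320, and leaving out glucose replicate 1 or fructose replicate 2 gives 24 genes higher, against 85 with all libraries.

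The 61 genes were then read in the BALB/c fructose and glucose livers at 3 h, which share no library with the C57BL6/J groups. There 60 of 61 had the same sign, while the share over all genes tested was 60.7%. The BALB/c contrast, from the same edgeR fit over all libraries, called 3 genes (0.0178%). They were 9030616G12Rik at 2.11 (edgeR adjusted p = 0.000184), Fbxl20 at 1.07 (edgeR adjusted p = 0.0096) and Cym, and the first 2 belong to the 61. G6pc was 1.89 (edgeR adjusted p = 0.0564) there, Pck1 2.47 (edgeR adjusted p = 0.211), Hmgcs1 -0.27 (edgeR adjusted p = 1.00), and the 25 sterol genes had a median of -0.30 with 23 negative values.

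The test of the difference between strains, C57BL6/J minus BALB/c, called 4 genes (0.0237%) with all libraries and 1 (0.00593%) without glucose replicate 1. Cxcl2, Ripk2 and Rnd1 were among the 4, at differences of -7.34 (edgeR adjusted p = 0.034), -2.55 (edgeR adjusted p = 0.00847) and -3.28 (edgeR adjusted p = 0.0117), and without that library these were -2.00, -0.06 and 0.10. Cym, chymosin, which was outside the naming rule and is given as the only other call, had a difference of -7.13 (edgeR adjusted p = 0.00847), or -7.10 (edgeR adjusted p = 0.0252) without glucose replicate 1. It lay at 0 to 0.249 CPM in fructose livers, against 0.194 to 1.86 CPM in glucose livers, in C57BL6/J, and at 0 to 32.5 CPM in fructose livers, against 0.171 to 0.470 CPM in glucose livers, in BALB/c.

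At 6 h the same drinks in C57BL6/J gave 18 calls (0.107%), and 35 of the 61 genes had the same sign as at 3 h, beside a share of 50.1% over all genes tested, and 1 of the 61 was called there. G6pc was 1.45 (edgeR adjusted p = 0.148) at 6 h, Hmgcs1 -1.12 (edgeR adjusted p = 0.248) and Fbxl20 0.14 (edgeR adjusted p = 0.956). The difference between times, 6 h minus 3 h, called 8 genes (0.0474%) with all libraries and 5 (0.0296%) without glucose replicate 1. Elac1, a transfer RNA processing enzyme, Fam219b and Rbm15, an RNA-binding protein, were called in both, at 1.32 (edgeR adjusted p = 0.0224), 0.87 (edgeR adjusted p = 0.0224) and -1.08 (edgeR adjusted p = 0.0172) with all libraries. Cxcl10 and Rnd1 were 5.01 (edgeR adjusted p = 0.0224) and 3.20 (edgeR adjusted p = 0.0172) with all libraries, and -0.22 and -0.19 without glucose replicate 1. Rxrg, named after its values were seen, was 1.40 (edgeR adjusted p = 0.0232), or 1.37 (edgeR adjusted p = 0.0631) without it.

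**Figure D5:**
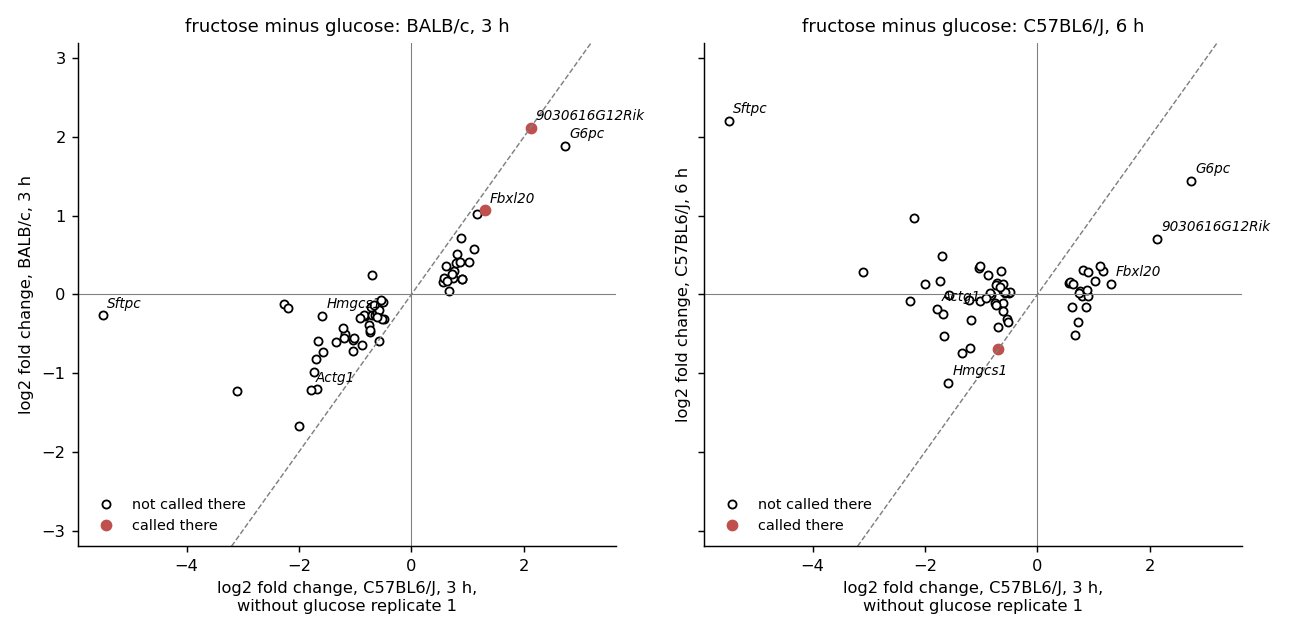
Log2 fold change of fructose minus glucose for the 61 genes called in both fits, in C57BL6/J at 3 h without glucose replicate 1 (x axes) and in BALB/c at 3 h or C57BL6/J at 6 h (y axes), with filled points called there and dashed lines at equal values. In BALB/c 60 of 61 points lie on the same side of 0 as in C57BL6/J, and at 6 h 35 do.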

How the data were processed

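Gene-level read counts were measured in 128 liver libraries of 26 groups, 24 of 5 and 2 of 4, and every count in the table comes from the authors' deposited file. The submitters' processing notes name CASAVA, STAR 2.5, HTSeq 0.6.1 and DESeq2, and the builds mm10 and GRCm38. No source used here says how strand was used in counting, so reads of overlapping or antisense genes may be mixed. The libraries are bulk liver of wild-type mice.

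The counts were scaled by TMM, and 16886 of 35275 genes passed edgeR's filter for expression. A mean per group was fitted over all libraries with edgeR 4.0.16 (quasi-likelihood, robust) in R 4.3.3, with Benjamini-Hochberg adjustment over all genes, and a gene was called at an adjusted p under 0.05. The whole fit was repeated without glucose replicate 1, and DESeq2 1.42.0 was an alternative. Log2 fold changes are fructose minus glucose, and ± is the SE implied by the edgeR test. It is the absolute log2 fold change over the square root of the test's F statistic, and the 95% intervals are built from it. Leave-one-out fits, other scaling, no filter and smaller sets of libraries were also run.

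Named genes were a panel of sugar and lipid genes, the 10 highest and 10 lowest called genes of each fit with a mean of at least 1 CPM, and up to 4 called members of each list, with up to 5 genes of each strain or time difference. Genes outside this rule are marked as named after their values were seen, and some genes are not reported here. Members, lists and tests were chosen with earlier results of these data known. Of 573 list symbols, 567 were in the table. Promoters come from RefSeq for GRCm38.p6, whose starts may differ from those of the counted genes.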

Additional observations from a re-analysis of the deposited data

Results flagged for a closer look

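Over 93 named genes, each group of 5 was checked for a library far from the other 4 of its group, by Dixon's ratio at a critical value of 0.71. Of 186 groups 36 were far, and in 24 of the 36 the library was glucose replicate 1 on the high side. Chance gives about 1 in 20, but many of these genes were named because they were called in the fit with glucose replicate 1, so the counts only describe the named genes and are not set against that share.

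Glucose replicate 1 stood far above the other glucose livers in immune and early response genes. It held Egr1 at 556.1 CPM, Cxcl1 at 593.4 CPM, Cxcl2 at 67.41 CPM, Cxcl10 at 437.5 CPM, Ccl2 at 33.9 CPM and Icam1 at 218.2 CPM. It held Tnfaip3 at 226.3 CPM, Ripk2 at 130.8 CPM, Rnd1 at 207.2 CPM, Nfkbia at 263.4 CPM, Atf3 at 43.36 CPM and Irf1 at 233.7 CPM. Fos stood at 114.7 CPM, Junb at 352.2 CPM, Dusp6 at 157.6 CPM and Ppp1r15a at 19.05 CPM in it, and the neutrophil genes S100a8, S100a9 and Retnlg at 16.5, 22.53 and 6.83 CPM. The same library was also the far one in metabolic genes, with Pck1 at 738.7 CPM, Igfbp1 at 734.6 CPM, Irs2 at 8.952 CPM and Arrdc4 at 40.3 CPM, and in Vgll4 at 27.96 CPM.

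Fructose replicate 4 was far above its group in 6 of the same kinds of genes at lower levels: Cxcl1 at 35.54 CPM, Tnfaip3 at 10.24 CPM, Fos at 8.347 CPM, Egr1 at 6.824 CPM, S100a9 at 1.785 CPM and S100a8 at 0.8399 CPM. Fructose replicate 3 was far above its group in Pck1 at 1448 CPM. Fructose replicate 2 was far above in Hmgcs1 at 254.5 CPM, Elac1 at 13.14 CPM and Sftpc at 0.476 CPM. Glucose replicate 4 was far above in Sftpc at 20.75 CPM and far below in Igj at 0.8811 CPM.

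The fructose minus glucose difference itself differed between C57BL6/J and BALB/c by an edgeR interaction test in Cxcl2 (-7.34 on the log2 scale, C57BL6/J minus BALB/c), Rnd1 (-3.28), Ripk2 (-2.55) and Cym (-7.13), and the first 3 rest on glucose replicate 1. Between times, 6 h minus 3 h, it differed in Cxcl10 (5.01), Rnd1 (3.20), Rxrg (1.40), Elac1 (1.32), Fam219b (0.87) and Rbm15 (-1.08). Without glucose replicate 1, Cxcl10, Rnd1 and Rxrg were no longer called, and Elac1, Fam219b and Rbm15 were.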

How the results depend on the processing

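The number of calls depended on the libraries and on the fit more than on the scaling. With DESeq2's size factors in edgeR it was 206 genes, beside 213. Leaving out 1 library at a time gave 68 to 254 calls, 24 to 113 higher and 44 to 141 lower. The lowest were glucose replicate 1 with 68 and fructose replicate 2 with 80, and the others past 1.5-fold were fructose replicates 1, 4 and 5 with 113, 114 and 126 and glucose replicates 2 and 3 with 131 and 135. Without a filter on low counts 88 genes were called (34 higher, 54 lower). The 10 libraries alone gave 14 (4 higher, 10 lower), and the 9 without glucose replicate 1 also 14 (8 higher, 6 lower). The 20 C57BL6/J libraries at 3 h gave 119 (62 higher, 57 lower). Libraries without the name suffix gave 54 (18 higher, 36 lower), and 5 (3 higher, 2 lower) without glucose replicate 1. DESeq2 gave 320 (136 higher, 184 lower), and 163 without glucose replicate 1. The cause of these shifts was not tested.

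Replicate numbers are shared by the groups, and whether they pair the samples was not settled. Of 5 same-number correlations of deviations 3 were over 0.1, over a range of -0.29 to 0.31. They were 0.172, 0.115 and 0.313 for replicates 1, 3 and 4, where neither library carries the name suffix. For replicates 2 and 5, where 1 library of the pair carries it, they were -0.146 and -0.287. Pairs of different numbers ran wider, from -0.329 for fructose replicate 5 with glucose replicate 4 to 0.329 for fructose replicate 5 with glucose replicate 2. Both libraries of that last pair carry the suffix. The part of the suffix in these values was not tested. With the replicate block edgeR called 297 genes (130 higher, 167 lower), 2 for the strain difference and 27 for the time difference.

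The strain difference gave 1 to 8 calls when 1 library was left out, with 1 without glucose replicate 1 and 7 or 8 without another glucose library, 0 among libraries without the name suffix with or without that library, 15 with DESeq2 and 8 with DESeq2 without it. The time difference gave 0 to 29 calls, with 0 without fructose replicate 5, 5 without glucose replicate 1, 15 without glucose replicate 3 or 4 and 29 without glucose replicate 5. It gave 31 with the suffix as a covariate, 0 among libraries without the suffix in either fit, 45 with DESeq2 and 42 with DESeq2 without glucose replicate 1.

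Of the 93 genes, those called with all libraries turned sign only in settings that leave out glucose replicate 1, while uncalled genes with values near 0, such as Dak, Slc2a2, Slc2a5 and Pklr, also did so in others. In edgeR without it, in its 9 libraries alone, without the suffix and in DESeq2, the log2 fold changes were 1.52, 1.51, 1.67 and 1.51 for Igfbp1, 1.23, 1.23, 1.48 and 1.26 for Cxcl1, 1.00, 1.00, 1.14 and 1.01 for Tnfaip3, 1.14, 1.14, 1.25 and 1.16 for Fos, 0.93, 0.93, 1.03 and 0.93 for Junb, 0.60, 0.61, 0.59 and 0.60 for Rnd1, and 0.32, 0.33, 0.26 and 0.32 for Icam1. In 3 of those settings, the 9 libraries alone left out, they were 0.49, 0.44 and 0.54 for S100a8, 1.26, 0.93 and 1.32 for S100a9, and 0.33, 0.26 and 0.37 for Retnlg. Nfkbia, not called with all libraries, was called higher in edgeR without it (0.86) and in DESeq2 without it (0.86). Its highest value over the 21 alternatives was 0.92, in a setting that did not call it. Egr1 turned without it among libraries that lack the suffix (0.0161).  The 3 settings that combine the loss of that library with another choice were chosen after seeing the data. Leaving out any other library kept these signs negative, down to -4.76 for Igfbp1, -5.31 for Cxcl1, -4.62 for Tnfaip3, -4.70 for Fos, -2.65 for Junb, -3.08 for Rnd1, -2.64 for Icam1, -4.69 for S100a8, -4.12 for S100a9, -5.11 for Retnlg and -0.93 for Nfkbia.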

Other observations

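Several pathways of the fed liver had few or no calls. Of 15 tested heat shock genes 14 had negative values with all libraries (median -0.38; -0.16 without glucose replicate 1), and 1 was called lower by edgeR with all libraries, Hspe1. None of 19 clock genes was called by edgeR in either fit; at an unadjusted p under 0.05 there were 2 with all libraries and 1 without glucose replicate 1, and DESeq2 called 0 and 0. Per1, a core clock repressor named after its values were seen, was 1.19 ± 0.50 (SE, adjusted p = 0.289 by edgeR, or 1.35 without glucose replicate 1) at 33.5 to 122 CPM in fructose livers, against 20.5 to 54.7 CPM in glucose livers, and its groups overlapped. None of 26 genes of fatty acid oxidation and ketone synthesis was called by edgeR, with a median of -0.07; at an unadjusted p under 0.05 there were 1 with all libraries and 2 without glucose replicate 1, and DESeq2 called 0 and 0. Plin2, a lipid droplet coat protein also named after its values were seen, was -0.78 ± 0.27 (SE, adjusted p = 0.137 by edgeR, or -0.68 without glucose replicate 1). None of 20 genes of the unfolded protein response was called by edgeR or DESeq2 or had an unadjusted p under 0.05 in either fit, with a median of -0.02. None of 18 glycogen genes and none of 23 genes of amino acid use and the urea cycle was called by edgeR or DESeq2 in either fit, with medians of -0.16 and -0.09, and 2 of each had an unadjusted p under 0.05 with all libraries.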
